A study of Mus musculus with 12 samples.

Results

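The genes described here are the sensors of the unfolded protein response and the transcription factor Xbp1. The 7 genes are Ern1, Eif2ak3, Atf6, Atf6b, Xbp1, Creb3l1 and Creb3l2, out of 38911 genes in the count tables. They were chosen by name, with earlier results of these data known. All 7 were found and all 7 passed the filter on low counts, which left 16966 genes for the tests. PolyA RNA was sequenced from mouse gastruloids, aggregates of about 200 E14TG2a embryonic stem cells that form mesoderm and neural tissue and elongate in culture. E14TG2a is an established mouse line, grown here in 2iLIF. Gastruloids were treated from day 3 and harvested on day 4, and gastruloids of 1 treatment from 1 plate were pooled for each library.

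The 4 groups had 3 libraries each. The control was medium with 21.25 mM glucose (1× glucose), and the others were medium without glucose (0× glucose), medium with 63.75 mM glucose (3× glucose) and 5 mM 2-Deoxy-D-Glucose (2-DG) in medium with 1× glucose. The labels give 1 library of each group to each of the stem cell passages 13, 15 and 16. All groups came from this 1 line, and the spread between replicates is that of passages and plates. By the methods, media of set glucose were mixed from glucose-free bases, with glucose and pyruvate adjusted. The 2-DG came from a stock in PBS and was diluted in the culture medium N2B27. Whether the 2-DG and 1× glucose libraries shared the same base medium and PBS is not stated, and its part was not tested. 2-DG is a competitive inhibitor of hexokinase and is also known to interfere with protein glycosylation. The libraries held 31902471 to 45956080 counts.  The series labels call the cells embryonic stem cells, and the RNA was that of day 4 aggregates: presomitic markers such as T and Tbx6 and somite markers such as Meox1 and Foxc2 were counted in all 4 groups.

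The endoplasmic reticulum (ER) folds secreted and membrane proteins, and cells sense the load of unfolded protein there through proteins that span its membrane. IRE1α, encoded by Ern1, is an RNase that cuts a short intron out of the cytosolic Xbp1 mRNA, and the protein made from the spliced mRNA activates genes of folding and degradation. PERK, encoded by Eif2ak3, phosphorylates the translation factor eIF2α, which lowers general translation and raises that of ATF4. ATF6, ATF6B and the related CREB3L1 and CREB3L2 travel to the Golgi, where proteases release their transcription factor domains. Splicing, phosphorylation and cleavage are not read from gene counts, which measure only how much RNA each gene had.

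The sequence on which the Xbp1 branch turns is shown first because the transcripts of Xbp1 in the tables differ by it. Xbp1 lies at chr11:5520659-5525893 (GRCm38, + strand), and the intron lies at chr11:5524282-5524307, within the coding part of exon 4 of its 5 exons. It was found as the stretch between a pair of CNGCAG motifs, where N is any base, whose removal gave the longest reading frame among the 3 pairs tried. With the stretch in place the frame has 267 codons, and without it 371. The window chr11:5524242-5524347 reads as follows, with the 26 bases of the intron in capitals.
Xbp1: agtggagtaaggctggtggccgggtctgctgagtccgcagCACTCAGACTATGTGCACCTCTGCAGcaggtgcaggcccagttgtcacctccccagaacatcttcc

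Xbp1 RNA was higher in 2-DG than in each of the glucose groups. Levels are given as CPM, counts scaled by the depth and composition of each library to a common total. In 1× glucose Xbp1 was at 43.5, 48.7 and 44.2 CPM in passages 13, 15 and 16. With 2-DG it was at 111, 106 and 89.2 CPM. All 3 libraries of 2-DG lay above all 9 others, which spanned only 42.4 to 50.1 CPM. The log2 difference between 2-DG and 1× glucose was 1.17 ± 0.09 (SE, n = 3 libraries per group), a 2.25-fold higher level (edgeR quasi-likelihood test, adjusted p = 5.1e-05). Within passages 13, 15 and 16 the log2 difference was 1.35, 1.13 and 1.01. Leaving out any 1 library of both groups kept the log2 difference between 1.10 and 1.26, with an adjusted p of at most 0.00052.

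The group means of Xbp1 stood in the order 43.5 ± 1.7 CPM in 3× glucose, 45.5 ± 2.8 in 1× glucose, 46.5 ± 3.2 in 0× glucose and 102 ± 12 in 2-DG (SD, n = 3). The first 3 groups overlapped one another. Against 1× glucose the log2 difference was 0.03 in 0× glucose, with a 95% interval from -0.16 to 0.22, and -0.06 in 3× glucose, with an interval from -0.25 to 0.13 (edgeR, adjusted p = 1.0 in each). Against 0× glucose, 2-DG was higher by 1.14 ± 0.09 on the log2 scale (SE, edgeR, adjusted p = 4.8e-05). This comparison shares the 2-DG libraries with the first.

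**Figure D1:**
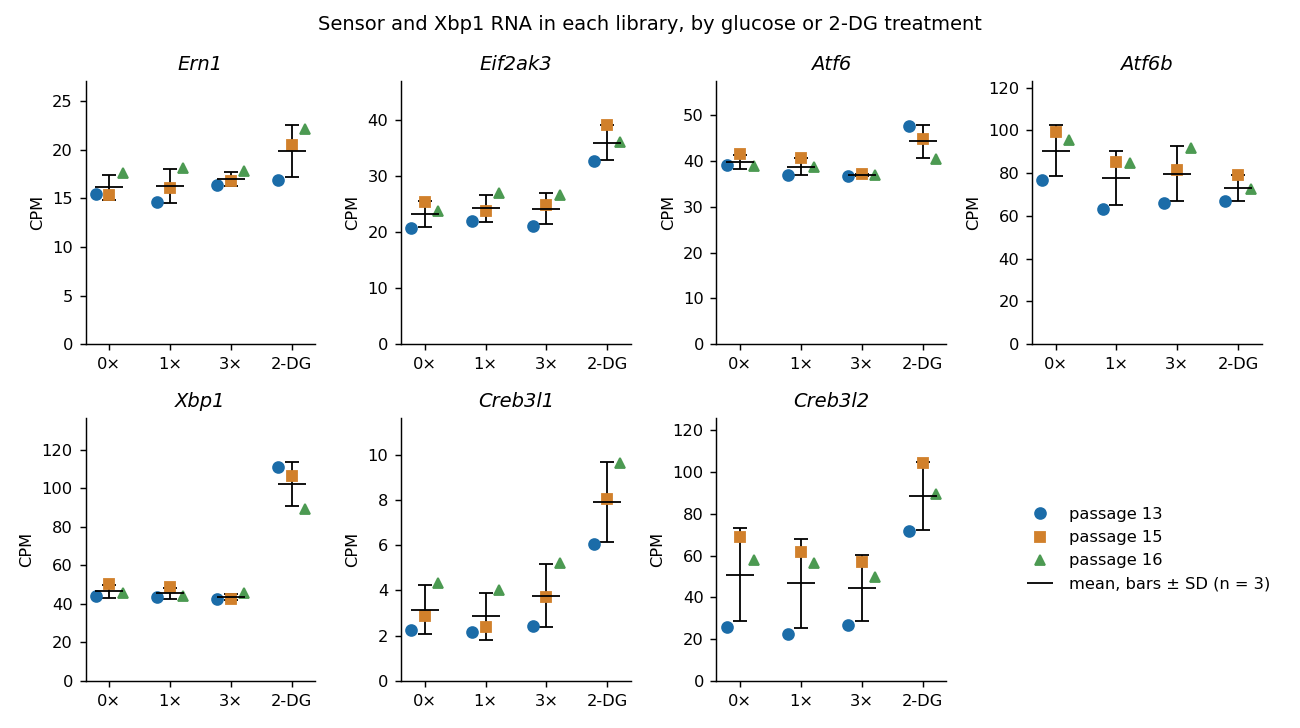
Level of each gene in each library in CPM (vertical axis, starting at 0), for the 0×, 1× and 3× glucose groups and 2-DG; symbols mark the passage, and black lines the mean with bars of ± SD (n = 3). The 2-DG libraries of Xbp1, Eif2ak3, Creb3l1 and Creb3l2 lie above all 9 others, whereas Ern1, Atf6 and Atf6b overlap between groups.

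Both RefSeq transcripts of Xbp1 are in the tables, and only the unspliced one received counts. The transcript with the intron, NM_013842.3, was given all counts of the gene, 1983, 1850 and 2047 in 1× glucose and 3796, 3907 and 3349 in 2-DG for passages 13, 15 and 16. In 0× glucose it had 1390, 1677 and 1476 counts, and in 3× glucose 1471, 1391 and 1858. The transcript without the intron, NM_001271730.1, was listed at 0 in all 12 libraries. These are estimates that StringTie apportions between transcripts, and the 26 bases are the only part in which a read can tell spliced Xbp1 from unspliced Xbp1. A listed 0 was therefore not read as an absence of spliced RNA, and a test of the share of each transcript could not be fitted. Tested as a transcript on its own, NM_013842.3 was higher in 2-DG than in 1× glucose by 1.16 ± 0.10 on the log2 scale (SE, edgeR over all transcripts, adjusted p = 0.0024).

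Eif2ak3, which encodes the PERK kinase, also rose with 2-DG. It was at 22.1, 23.8 and 26.9 CPM in 1× glucose and at 32.8, 39.1 and 36.1 CPM in 2-DG, in passages 13, 15 and 16. The 3 libraries of 2-DG lay above all 9 others, which reached 26.9 CPM. The log2 difference was 0.57 ± 0.11 (SE, n = 3 per group), or 1.48-fold (edgeR, adjusted p = 0.0075), and 0.57, 0.72 and 0.42 within the passages. Against 0× glucose it was 0.63 ± 0.11 (SE, edgeR, adjusted p = 0.0042). The call held without any 1 of the 6 libraries of 2-DG and 1× glucose, at a log2 difference of 0.50 to 0.65 and an adjusted p of 0.010 to 0.036.

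The total of Eif2ak3 was steadier than its division between transcripts. NM_010121.3 held 99.7% of the Eif2ak3 counts in the 2-DG library of passage 15, but 33.2% and 23.8% in those of passages 13 and 16. In 0× glucose it held 1.21% in passage 13 and 100% in passages 15 and 16. The transcript XM_011241202.3, which took most of the rest, was listed at 0 in 6 of the 12 libraries. When only the transcript with the most counts was kept for each gene, the log2 difference of Eif2ak3 between 2-DG and 1× glucose was 0.55 and no longer called (edgeR, adjusted p = 0.91). In the annotation GENCODE M21, 221 bases of the Eif2ak3 exons overlap Gm43292, a short model on the opposite strand, and the strand setting of the counting is not given in the sources used here.

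Creb3l1, which encodes a membrane-bound factor of secretory and collagen-producing cells, was the lowest of the 7 genes in 1× glucose and had the largest fitted difference of the 7. It was at 2.15, 2.37 and 4.04 CPM in 1× glucose and at 6.06, 8.06 and 9.62 CPM in 2-DG, in passages 13, 15 and 16. The other groups held 2.24 to 5.21 CPM, so that all 3 libraries of 2-DG lay above them too. The log2 difference between 2-DG and 1× glucose was 1.47 ± 0.35 (SE, n = 3 per group), or 2.77-fold (edgeR, adjusted p = 0.016), and 1.47, 1.75 and 1.24 within the passages. Without the 1× glucose library of passage 13, that of passage 15, or the 2-DG library of passage 16, the difference was 1.30, 1.35 and 1.31 and no longer passed (edgeR, adjusted p = 0.055, 0.067 and 0.056). Against 0× glucose the difference was 1.33 ± 0.35 (SE, edgeR, adjusted p = 0.024), and it was 1.14 to 1.32 and no longer passed without the 2-DG library of passage 15 or 16 or the 0× glucose library of passage 13 or 15 (edgeR, adjusted p = 0.060 to 0.080). The adjusted p of Creb3l1 was 7.7e-06 against 1× glucose and 1.3e-05 against 0× glucose when passage was a block.

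Creb3l2, the close relative of Creb3l1, had the largest difference between passages of the 7 genes. It was at 22.4, 61.7 and 56.2 CPM in 1× glucose and at 71.7, 104 and 89.6 CPM in 2-DG, in passages 13, 15 and 16. The 2-DG library of each passage was the highest of its passage, and the lowest of the 3, at 71.7 CPM, lay above all 9 other libraries, which reached 68.9 CPM. The log2 difference between 2-DG and 1× glucose was 0.92 ± 0.43 (SE, n = 3 per group) and did not pass (edgeR, adjusted p = 0.17). With the passage as a block it was 1.03 ± 0.16 and passed (edgeR, adjusted p = 0.00049). Within the passages it was 1.68, 0.76 and 0.67. Against 0× glucose the difference was 0.80 ± 0.43 (edgeR, adjusted p = 0.22), and 0.90 ± 0.16 with the block (adjusted p = 0.0011).

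Ern1, which encodes IRE1α, was at 14.6, 16.1 and 18.1 CPM in 1× glucose and at 16.9, 20.5 and 22.2 CPM in 2-DG. The 2-DG library was the higher one in each passage, although the groups overlapped. The log2 difference was 0.29 ± 0.12 (SE, n = 3 per group) and was not called (edgeR, adjusted p = 0.11), whereas with the passage as a block it was 0.29 ± 0.07 and called (adjusted p = 0.0090). Against 0× glucose it was 0.30 ± 0.12 and not called (edgeR, adjusted p = 0.097), and called with the block (adjusted p = 0.0078). Against 1× glucose and without the 2-DG library of passage 13 it was 0.39 and called (adjusted p = 0.044), and without any 1 of the other 5 libraries it was 0.20 to 0.37 and not called.

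Atf6, the founding member of its family, was at 37.0, 40.7 and 38.7 CPM in 1× glucose and at 47.6, 44.9 and 40.4 CPM in 2-DG. The groups overlapped, and the library of passage 16 was the lowest of 2-DG. The log2 difference was 0.19 ± 0.07 (SE, n = 3 per group) and was not called (edgeR, adjusted p = 0.069). With the block it was 0.19 ± 0.05 and called (adjusted p = 0.018), as it was at 0.25 without the 2-DG library of passage 16 (adjusted p = 0.023) and at 0.19 by DESeq2 (adjusted p = 0.040). Against 0× glucose the log2 difference was 0.15 ± 0.07 and not called (edgeR, adjusted p = 0.13), and called with the block (adjusted p = 0.048). Its division between transcripts also moved: NM_001081304.1 held 42.4% to 49.1% of the Atf6 counts in 2-DG and 43.1% to 84.9% in 1× glucose, and taken alone it had a log2 difference of -0.39 (edgeR, adjusted p = 0.66).

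Atf6b, which encodes the paralog of ATF6, was the only one of the 7 genes with a fitted difference below 0. It was at 63.3, 85.2 and 84.6 CPM in 1× glucose, at 66.9, 79.1 and 72.7 CPM in 2-DG and at 76.8, 99.3 and 95.5 CPM in 0× glucose. The log2 difference between 2-DG and 1× glucose was -0.09 ± 0.15 (SE, n = 3 per group), with a 95% interval from -0.42 to 0.24 (edgeR, adjusted p = 0.73; with the block 0.31). Against 0× glucose, Atf6b was lower in 2-DG in 3 of 3 passages. That difference was -0.31 ± 0.15 (edgeR, adjusted p = 0.17), and -0.31 ± 0.06 with the passage as a block, which was called (adjusted p = 0.0022).

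Counted together, 3 of the 7 genes were called higher in 2-DG than in 1× glucose and none lower, where 9.12% of all tested genes were called higher and 8.51% lower. Since the 7 were chosen with earlier results of these data known, such counts are a description. With the passage as a block 6 of the 7 were called higher and none lower, against 21.1% and 20.2% of all tested genes. DESeq2 called 4 of the 7, the same 3 and Atf6, beside 3686 of the 16966 tested genes in either direction. All 3 libraries of 2-DG lay above all 3 of 1× glucose for 4 of the 7 genes and for 18.3% of all tested genes. The median log2 difference was 0.57 over the 7 genes and 0.00 over all tested genes. Against 0× glucose, 3 of the 7 genes were called higher in 2-DG and none lower (9.86% and 9.04% of all tested genes), and with the block 6 were called higher and 1 lower (21.5% of all tested genes in each direction). DESeq2 called 3 of the 7 in that comparison, beside 3866 of the 16966 tested genes in either direction. For 1 gene at a time, the smallest two-sided p that exact permutation of 3 and 3 libraries allows is 0.1.

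**Figure D2:**
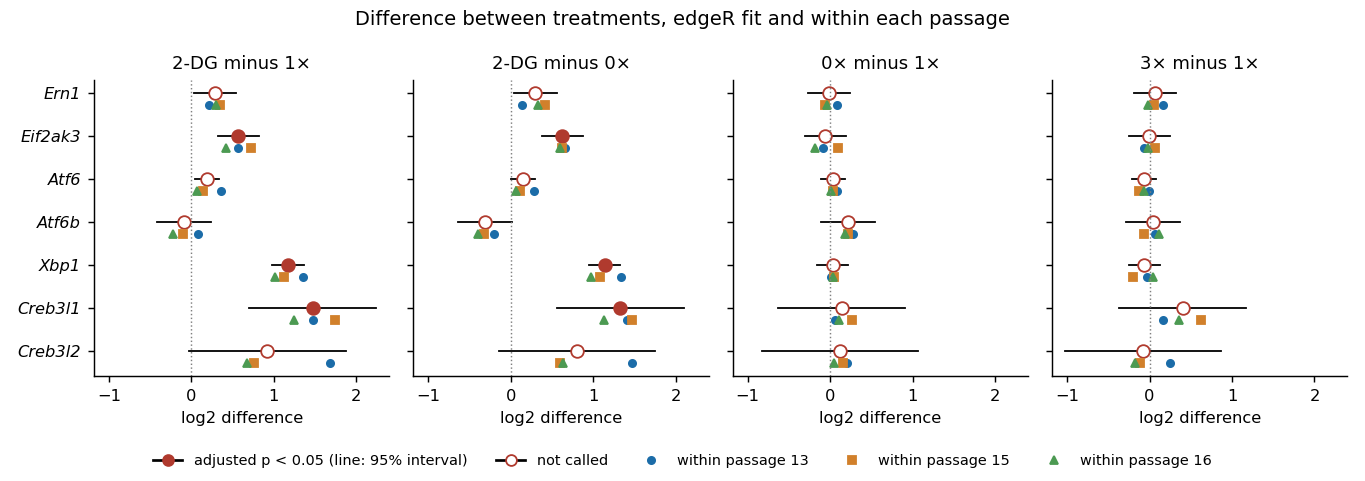
Log2 difference (horizontal axis) of the 7 genes in 4 comparisons of treatments, with the edgeR estimate (large circles, filled where the adjusted p is under 0.05), its 95% interval (lines) and the difference within each passage (small symbols). Xbp1, Eif2ak3 and Creb3l1 are filled in both comparisons of 2-DG, Creb3l2 has a wide interval that includes 0 while each of its passages lies above 0, and no circle is filled for 0× or 3× glucose against 1× glucose.

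Neither the absence of glucose nor its excess changed any of the 7 genes by the test. In 0× glucose against 1× glucose, 0 of the 7 were called (edgeR, adjusted p = 1.0 for each), and 0.0118% of all tested genes, or 0.0177% with the passage as a block. In 3× glucose against 1× glucose, 0 of the 7 and 0% of all tested genes were called, with or without the block. At an unadjusted p under 0.05 there were 0 of the 7 in both comparisons, beside 306 of the 16966 genes in 0× glucose and 178 in 3× glucose. DESeq2 called 12 and 2 genes, and 0 of the 7. The fitted differences of the 7 genes ran from -0.06 to 0.22 in 0× glucose and from -0.07 to 0.40 in 3× glucose.

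The 95% intervals of these differences show what size could have been missed. For Eif2ak3 the interval was -0.31 to 0.19 in 0× glucose and -0.25 to 0.25 in 3× glucose. For Atf6 it was -0.11 to 0.18 and -0.21 to 0.08. Those of Creb3l2 were the widest, from -0.82 to 1.07 in 0× glucose and from -1.02 to 0.87 in 3× glucose. Atf6b in 0× glucose was higher in 3 of 3 passages, by 0.28, 0.22 and 0.18 (with the block 0.22 ± 0.06, unadjusted p = 0.0034, edgeR adjusted p = 0.37). Creb3l1 in 3× glucose was higher in 3 of 3 passages too, by 0.16, 0.63 and 0.36 (with the block 0.39 ± 0.12, unadjusted p = 0.0077, edgeR adjusted p = 0.90).

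The passage of the stem cells was the other axis along which the 7 genes varied. With the treatment in the model, 5 of the 7 differed between passages, where 46.2% of all tested genes did. The 4 libraries of a passage, 1 of each treatment, stood as its replicates in this test. The adjusted p-values therefore measure the spread between those libraries, not between repeated cultures of a passage. A passage cannot be told apart from the plating or date that went with it. Creb3l2 was higher in passage 15 than in passage 13 by 1.09 ± 0.14 on the log2 scale, and in passage 16 than in passage 13 by 0.90 ± 0.14 (SE, edgeR, adjusted p = 0.00017 and 0.00057). It was lowest in passage 13 in each of the 4 groups. Creb3l1 stood highest in passage 16, above passage 13 by 0.90 ± 0.10 and above passage 15 by 0.52 ± 0.10 (SE, edgeR, adjusted p = 8.3e-05 and 0.024).

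Atf6b was lower in passage 13 than in passages 15 and 16, by 0.34 ± 0.05 and 0.33 ± 0.05 (SE, edgeR, adjusted p = 0.00057 and 0.00058). Eif2ak3 was also lower in passage 13, by 0.22 ± 0.06 and 0.24 ± 0.06 (adjusted p = 0.0086 and 0.0059), and Ern1 was lower in passage 13 than in passage 16 by 0.25 ± 0.06 (adjusted p = 0.0084). Xbp1 and Atf6 were not called between passages (edgeR, adjusted p = 0.36 for both). The summed level of the somite markers (Meox1, Tcf15, Foxc2, Pax3 and Aldh1a2) moved with the passage, from 240 to 419 CPM in the libraries of passage 13, 919 to 1223 in passage 15 and 661 to 900 in passage 16. In a pool of whole gastruloids, more cells of a type and more RNA per cell cannot be told apart, and the part of these markers in the differences between passages was not tested.

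Per length of transcript, the 7 genes spanned a wide range of levels. In 1× glucose Atf6b had the highest level per kilobase, 30.3 ± 4.9 CPM, followed by Xbp1 at 21.4 ± 1.3 (SD, n = 3). Creb3l2 was at 6.61 ± 3.01, Eif2ak3 at 5.38 ± 0.55 and Atf6 at 5.36 ± 0.26 CPM per kilobase, and the ranges of these 3 overlapped. Ern1 was at 2.34 ± 0.25 and Creb3l1 at 1.10 ± 0.40. In 2-DG the top of this order differed, with Xbp1 at 48.0 ± 5.4 above Atf6b at 28.4 ± 2.4 CPM per kilobase. Creb3l1 at 3.04 ± 0.68 stood beside Ern1 at 2.86 ± 0.39, with overlapping ranges. The lengths are those of 1 GENCODE transcript a gene, from 2129 bases for Xbp1 to 7246 bases for Atf6, and for Creb3l2 the transcript used (NM_178661.4, 7082 bases) received only 7.53% to 14.9% of the Creb3l2 counts.

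**Figure D3:**
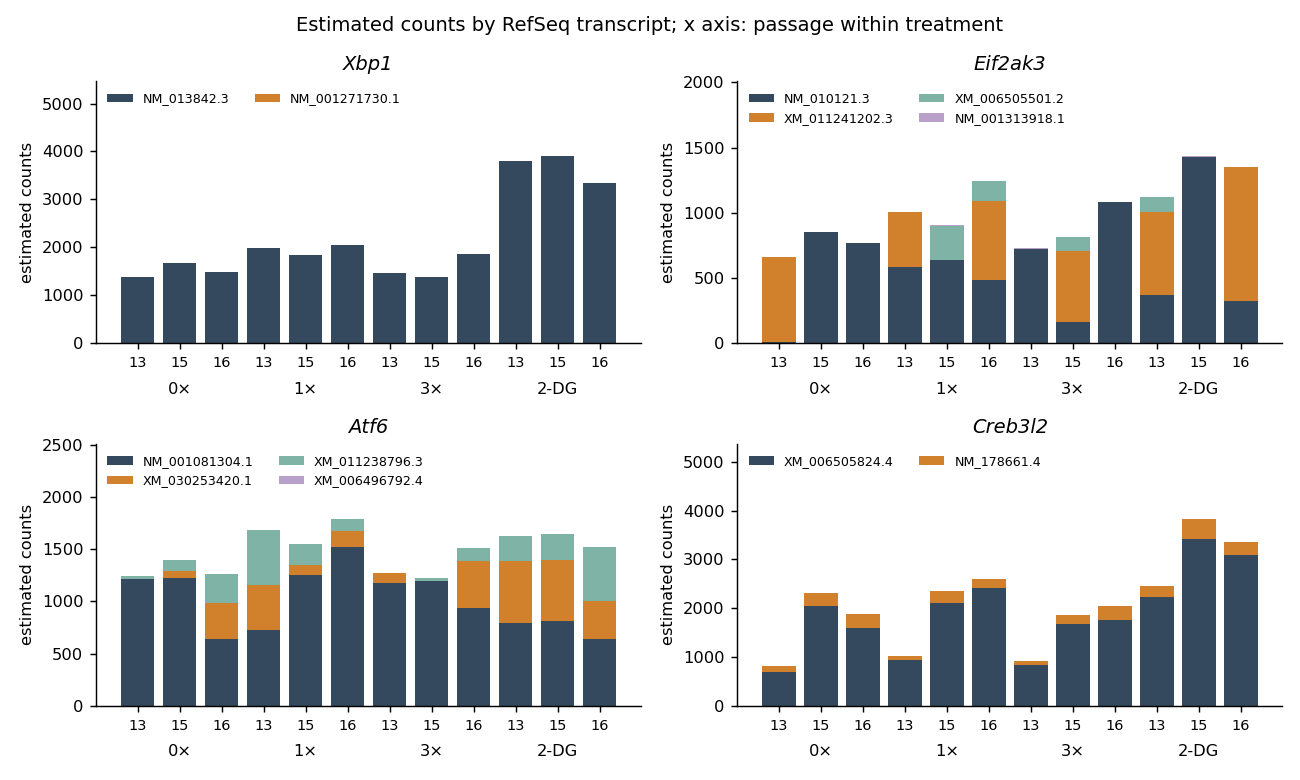
Estimated counts (vertical axis, starting at 0) of each RefSeq transcript of Xbp1, Eif2ak3, Atf6 and Creb3l2, stacked, in the 12 libraries ordered by treatment and passage. All Xbp1 counts belong to NM_013842.3, while the division of Eif2ak3 and Atf6 between transcripts changes from library to library, also within a treatment.

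Genes whose products act at the ER rose together with Xbp1. Of 24 genes of ER folding, export and degradation, which Xbp1 and Atf6 are known to activate, 24 were called higher in 2-DG than in 1× glucose, with a median log2 difference of 1.03 and a range of 0.36 to 3.50. The same 24 were called higher with the passage as a block, and 24 of 24 were called higher against 0× glucose. All tested genes were called higher at 9.12% against 1× glucose, 21.1% with the block and 9.86% against 0× glucose. In 0× and in 3× glucose against 1× glucose 0 of the 24 were called, with medians of 0.10 and 0.00. This list and those that follow were chosen with results of these libraries known, so that their counts are a description.

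Derl3, which helps to draw misfolded proteins out of the ER, had the largest difference of the 24. It had 32, 18 and 18 counts in 1× glucose and 302, 174 and 162 in 2-DG, and the log2 difference was 3.50 ± 0.39 (SE, edgeR, adjusted p = 0.00038). Sdf2l1, a partner of ER chaperones, was at 14.5 to 17.5 CPM in 1× glucose and 48.5 to 77.4 in 2-DG, a difference of 2.01 ± 0.15 (adjusted p = 5.5e-05). Herpud1, a component of ER-associated degradation, was at 24.3 to 26.7 CPM and 69.5 to 103 CPM, a difference of 1.76 ± 0.13 (adjusted p = 5.1e-05). In each of the 3 genes the lowest 2-DG library lay above the highest of 1× glucose. Hspa5, the main chaperone of the ER and the gene most often used to mark its stress, stood at 596 to 660 CPM in 1× glucose and 1204 to 1510 in 2-DG, and its difference was 1.12 ± 0.08 (adjusted p = 5.1e-05).

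Of 17 genes of the PERK branch, 8 were called higher in 2-DG than in 1× glucose and none lower, with a median of 0.49, and with the block 12 were called higher. The share of all tested genes called higher was 9.12%, and 21.1% with the block. Those with the largest differences were Chac1, a glutathione-degrading enzyme, Nupr1, a small stress-response chromatin protein, and Trib3, a pseudokinase. Chac1 had 110, 19 and 23 counts in 1× glucose and 293, 501 and 136 in 2-DG, in passages 13, 15 and 16 (log2 difference 2.91 ± 0.73, edgeR, adjusted p = 0.022). Nupr1 rested on 2, 3 and 6 counts against 33, 16 and 14 (2.75 ± 0.83, adjusted p = 0.045). Trib3 had 94, 36 and 37 counts against 325, 341 and 156 (2.58 ± 0.40, adjusted p = 0.0021). Atf4 itself, the factor whose translation PERK raises, was called higher by 0.49 ± 0.09 (adjusted p = 0.0061) and Ddit3, which encodes CHOP, by 0.76 ± 0.16 (adjusted p = 0.0097). Ppp1r15a, the phosphatase subunit that restores translation, was at -0.08 ± 0.07 and not called (adjusted p = 0.54; with the block 0.39).

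The mRNAs that IRE1α is known to cut (its RIDD substrates) moved in both directions. Of 8, 2 were called lower and 2 higher, with a median of -0.12, and with the block 4 were lower and 2 higher. Among all tested genes 8.51% were called lower and 9.12% higher, and with the block 20.2% and 21.1%. Col6a1, a collagen, was at 1.34 to 1.43 CPM in 1× glucose and 0.53 to 0.76 in 2-DG (log2 difference -1.14 ± 0.23, edgeR, adjusted p = 0.0078). Pdgfrb, a growth factor receptor, fell by 0.33 ± 0.07 (adjusted p = 0.014). Sparc, a secreted matrix protein, rose by 1.04 ± 0.16 (adjusted p = 0.0020). Bloc1s1, the substrate most used as a readout, was at 0.04 ± 0.09 and not called (adjusted p = 0.83; with the block 0.61).

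Of 6 known targets of the CREB3L factors, 3 were called higher and none lower, where 9.12% and 8.51% of all tested genes were. The 3 were those of coat protein complex II, which carries cargo out of the ER. Sec24d was at 23.0, 22.5 and 23.7 CPM in 1× glucose and 86.2, 85.2 and 78.3 in 2-DG, a log2 difference of 1.85 ± 0.06 (SE, edgeR, adjusted p = 1.1e-07). Sec31a rose by 0.49 ± 0.09 and Sec23a by 0.44 ± 0.09 (adjusted p = 0.0054 and 0.0074). The other 3 were the collagens Col1a1, Col1a2 and Col2a1, with differences of 0.40, -0.82 and -0.20, none called (adjusted p = 0.73, 0.18 and 0.73), although Col1a2 was called lower with the block (adjusted p = 0.0066).

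Genes that work beside the sensors were called in both directions, where 9.12% of all tested genes were called higher and 8.51% lower. Of 14 genes of the machinery (the tRNA ligase that joins spliced Xbp1, the Golgi proteases, eIF2 and NF-Y subunits and adaptors of IRE1α), Sec63, a translocon subunit, was called higher by 0.40 ± 0.05 and Traf2, an adaptor of IRE1α, lower by 0.27 ± 0.07 (edgeR, adjusted p = 0.0010 and 0.022). The 14 differences ran from -0.42 for Zbtb8os to 0.47 for Map3k5, with a median of -0.06, and both of these genes were called with the block (adjusted p = 0.00076 and 0.0036) but not without it (0.094 and 0.12). With the block 4 were called higher and 4 lower, beside 21.1% and 20.2% of all tested genes. Of 7 relatives of the sensors 5 were tested. Creb3, a membrane-bound factor of the same family, was called higher by 0.36 ± 0.11 and Eif2ak1, the heme-regulated eIF2α kinase, lower by 0.19 ± 0.05 (adjusted p = 0.038 and 0.020), and with the block 2 were called in each direction. Creb3l4, another factor of that family, had the largest difference of the 5, -0.82 ± 0.33, and was called with the block (adjusted p = 0.0054) but not without it (0.12). In 0× and 3× glucose against 1× glucose 0 of the tested genes of each of these lists were called.

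**Figure D4:**
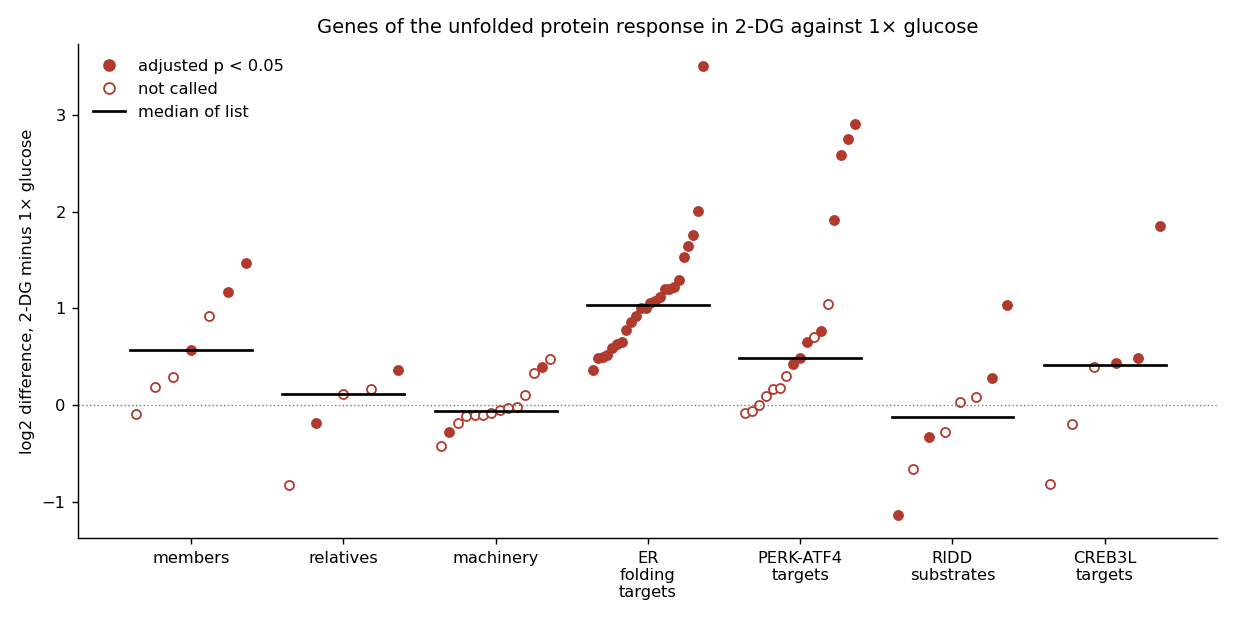
Log2 difference between 2-DG and 1× glucose (vertical axis) for each tested gene of 7 lists, ordered within a list; filled circles have an adjusted p under 0.05 and the black line is the median. All 24 circles of the ER folding targets are filled and above 0, whereas the RIDD substrates and the machinery lie on both sides of 0.

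The genes most like each called gene over the 12 libraries were sought among 11969 genes with a mean of at least 100 counts, by the root mean square difference of centred log2 CPM. Those nearest to Xbp1 were Hyou1 at 0.07, Manf at 0.08 and Hspa5 at 0.08, where the spread of Xbp1 itself was 0.52. Each of the 3 encodes an ER chaperone or a secreted ER stress protein, and each is in the list of ER folding targets. Nearest to Eif2ak3 were Snd1 at 0.05, Ppm1l at 0.07 and Sec61a1 at 0.08, with a spread of 0.28 for Eif2ak3. Nearest to Creb3l1 were Peg10 at 0.22, Cyyr1 at 0.24 and Zfhx2 at 0.25, against 0.70 for Creb3l1, a looser likeness. The likeness reads the 4 treatments and the 3 passages together.

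Promoters were searched for the letters of 4 elements known from this response, on both strands, in the RefSeq table of GRCm38.p6 (250 bases before to 50 bases after the start of a gene). They were the ER stress element ERSE (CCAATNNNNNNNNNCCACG), ERSE-II (ATTGGNCCACG), the UPR element UPRE (TGACGTGG) and the cAMP response element CRE (TGACGTCA). Among 32851 promoters, 0.119% held ERSE, 0.0365% ERSE-II, 0.676% UPRE and 1.79% CRE. The table holds promoters of 5 of the 7 genes (Ern1, Eif2ak3, Atf6b, Xbp1 and Creb3l2), and 0 of these held any of the 4. Of the 21 promoters of the ER folding targets, which cover 20 of the 24 genes, 9 held ERSE and 2 held ERSE-II. Of the 5 promoters of the CREB3L targets, 2 held UPRE, those of Sec24d and Sec23a. Of the 17 promoters of the genes downstream of eIF2α phosphorylation, 1 held CRE, that of Ppp1r15a, which was not called in 2-DG. A match describes letters only.

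Some of the matches, all in genes called higher in 2-DG, are shown as windows on the strand of the gene, with the element in capitals. In Derl3 and Creld2 the element reads on the opposite strand and begins with CGTGG. They lie at chr2:34772015-34772053 (Hspa5, + strand), chr14:118937817-118937855 (Dnajc3, + strand), chr10:75893232-75893270 (Derl3, + strand), chr15:88819510-88819548 (Creld2, + strand), chr8:94386367-94386397 (Herpud1, + strand) and chr3:123267460-123267487 (Sec24d, + strand). Dnajc3 encodes an ER co-chaperone and Creld2 a folding factor, and their log2 differences in 2-DG against 1× glucose were 1.53 ± 0.09 and 1.65 ± 0.12 (SE, edgeR, adjusted p = 2.3e-05 and 5.1e-05).
Hspa5, ERSE: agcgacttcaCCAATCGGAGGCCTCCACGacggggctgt
Dnajc3, ERSE: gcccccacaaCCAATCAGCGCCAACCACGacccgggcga
Derl3, ERSE: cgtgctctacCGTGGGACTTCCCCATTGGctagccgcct
Creld2, ERSE: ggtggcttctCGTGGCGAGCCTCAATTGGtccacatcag
Herpud1, ERSE-II: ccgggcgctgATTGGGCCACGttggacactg
Sec24d, UPRE: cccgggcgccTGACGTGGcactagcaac

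The bases upstream of Xbp1 are shown beside them, since Xbp1 rose with these genes and its window held none of the 4 elements. The 250 bases at chr11:5520391-5520640 (+ strand) hold 1 ACGT, the core that UPRE and CRE share, 31 bases before the start, in capitals. ACGT was in 30.9% of all promoters of 300 bases.
Xbp1: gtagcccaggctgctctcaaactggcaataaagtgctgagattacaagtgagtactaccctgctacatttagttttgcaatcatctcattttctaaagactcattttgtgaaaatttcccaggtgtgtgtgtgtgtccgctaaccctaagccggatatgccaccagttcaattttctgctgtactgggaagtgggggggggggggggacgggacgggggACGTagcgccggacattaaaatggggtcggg

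Summed levels of some markers of tissue also differed in 2-DG. The summed level of the 7 streak and presomitic markers was 523 to 588 CPM in 1× glucose and 204 to 371 in 2-DG, and T, a mesoderm marker, fell by 1.57 ± 0.36 on the log2 scale (edgeR, adjusted p = 0.014). T and Tbx6 had the highest levels of the 7, at means of 225 and 224 CPM in 1× glucose. Of the 7, 2 were called lower and none higher, where 8.51% and 9.12% of all tested genes were. Mesp1 was fitted higher, at means of 20.1 CPM in 1× glucose and 25.8 in 2-DG. The 7 neural markers summed to 23.2 to 55.4 CPM in 1× glucose and 70.7 to 164 in 2-DG, and the 7 pluripotency markers to 37.0 to 51.9 and 58.4 to 72.3. Of the 6 neural markers tested 4 were called higher, and of the 6 pluripotency markers tested 1, and none of either lower. Pou5f1 was the largest part of the pluripotency sum, at means of 33.3 CPM in 1× glucose and 48.8 in 2-DG. Klf4 was fitted lower, at means of 3.97 and 3.69 CPM. The 5 endothelial and blood markers were at 3.07 to 10.3 and 1.82 to 1.99 CPM. Of these 5, 1 was called lower and none higher, and Pecam1 was fitted higher. The sums of the somite, endoderm and fibroblast markers overlapped between both groups, at 240 to 1092 and 419 to 952 CPM, 31.7 to 201 and 30.7 to 86.1 CPM, and 9.90 to 12.6 and 9.90 to 13.2 CPM. Of the fibroblast markers, Lum and Postn had no counts in 2-DG and reached at most 0.04 and 0.22 CPM in 1× glucose. Lum had no counts in 0× and 3× glucose either. Dcn stood higher in 2-DG, at 0.45 to 0.53 CPM against 0.11 to 0.13 in 1× glucose, on 17 to 18 and 4 to 6 counts a library, with a log2 difference of 1.97 ± 0.85 that was not called (edgeR, adjusted p = 0.14; with the block 0.053). The part of these markers in the differences of the 7 genes was not tested.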

How the data were processed

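PolyA RNA of 12 libraries was analysed, 3 for each of 4 treatments. The authors deposited estimated counts per RefSeq transcript for each library. According to the submitters' processing notes they used Trim Galore, HISAT2, SAMtools, Picard and StringTie on mm10, with the removal of duplicates stated in the methods. Versions and the strand setting are not given in the sources used here. StringTie apportions reads between transcripts, so that counts of single transcripts are less certain than their sum. The 3 deposited tables of the authors' own DESeq2 comparisons were not used. Counts, already whole numbers, were summed by gene symbol through the RefSeq table of GRCm38.p6, which named all 120312 transcripts. A total of 31902471 to 45956080 counts per library sets the precision.

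A single model held all 4 groups, without the passage (edgeR 4.0.16 in R 4.3.3, with filterByExpr, TMM, glmQLFit and glmQLFTest). Two-sided p-values were adjusted by Benjamini-Hochberg over all 16966 genes of a comparison, and called under 0.05. SEs were derived from the F statistic, and intervals cover 95%. Within-passage differences use log2 CPM with a prior count of 2. Comparisons were 2-DG, 0× and 3× glucose against 1× glucose, 2-DG against 0× glucose, and passages. The labels' passages pair the libraries: deviations from group means correlated at 0.096 to 0.62 within a passage and at -0.44 to 0.19 between passages, so the fit with the passage as a block is given where it changes a call. In simulated counts for 2-DG against 1× glucose with 200 of 16727 genes changed by 1 on the log2 scale, 86% were called and 4.44% of the calls were false. With the block these were 81% and 3.57%. The changed genes had a mean of at least 100 counts, and the simulated counts held no differences between passages. These shares therefore do not give the recovery or the false calls in the real libraries. DESeq2 1.42.0 was an alternative.

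The 7 genes and the lists were chosen with earlier results of these data known. Named genes were the 7, the 3 called genes of each list with the largest difference in 2-DG against 1× glucose, and the 3 most like each called gene. Hspa5, Atf4, Ddit3, Ppp1r15a, Bloc1s1, the collagens, T, the fibroblast markers and the genes whose promoters are shown were added after their values were seen. The methods describe the replicates as biological, and the labels name passages only.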

Additional observations from a re-analysis of the deposited data

How the results depend on the processing

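Xbp1 was called higher in 2-DG, against 1× and against 0× glucose, under all 25 alternatives tried. Of 337 differences of single genes under an alternative, 291 kept their direction and side of the threshold, 12 became called, 11 lost their call and 23 changed direction, of which none was called in either fit.

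With the passage as a block, 7001 genes and 6 of the 7 were called in 2-DG against 1× glucose in place of 2990 and 3, and 7305 and 7 against 0× glucose in place of 3207 and 3. Of the 5 tested relatives 4 were called with the block and of the 14 genes of the machinery 8, beside those 7001 of 16966 tested genes. The block changed no other call of the 7 than those given above, and every gene called without it was called with it. When the model held only the 2 groups compared, 1896 genes were called in 2-DG and 0 in 0× glucose against 1× glucose. DESeq2 called 12 genes in 0× and 2 in 3× glucose against 1× glucose.

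With the most abundant transcript of each gene in place of the sum, 653 genes were called in 2-DG against 1× glucose, 775 against 0× glucose, 2 in 3× glucose and 1879 between passages. Of the 7, only 1 (Xbp1) was called in 2-DG against 1× glucose, 1 (Xbp1) against 0× glucose, and 3 between passages. Of the lists, 0 relatives, 0 genes of the machinery, 5 genes downstream of eIF2α phosphorylation, 2 RIDD substrates and 1 CREB3L target were called. The log2 difference of Atf6 turned to -0.39 in 2-DG against 1× glucose, to -0.60 against 0× glucose and to 0.19 in 3× glucose against 1× glucose, and that of Eif2ak3 to 0.30 in 0× and 0.38 in 3× glucose. Creb3l1 has a single transcript in the tables and kept its difference of 1.47, but its adjusted p was 0.071. The cause was not tested.

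Leaving out 1 library at a time gave 1734 to 2352 called genes in 2-DG against 1× glucose, 2051 to 2619 against 0× glucose and 1 to 3 in 0× against 1× glucose. The fewest against 1× glucose were called without the 1× glucose library of passage 15. In 0× against 1× glucose the log2 difference ran from -0.084 to 0.069 for Ern1, -0.13 to 0.022 for Eif2ak3, -0.030 to 0.073 for Xbp1, -0.16 to 0.48 for Creb3l1 and -0.21 to 0.44 for Creb3l2. In 3× against 1× glucose it ran from -0.0073 to 0.15 for Ern1, -0.079 to 0.082 for Eif2ak3, -0.087 to 0.15 for Atf6b and -0.41 to 0.19 for Creb3l2, with none called. The alternatives for the share of Xbp1 transcripts were not run, since only 1 of the transcripts had counts.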
